A study of Mus musculus with 32 samples.

Results

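The response of cultured mouse cardiac fibroblasts to transforming growth factor beta (TGFb) was measured by RNA sequencing in cells that carried the control vector LacZ. The libraries titled LacZ_TGFB and LacZ_SS were chosen by title, and they make up 8 of the 32 libraries of the series, with replicate numbers 1 to 4 in each group. LacZ_TGFB cells had 24 h of TGFb at 10 ng/ml, in medium that the protocol calls serum-starved. LacZ_SS cells had no stimulus, and the labels do not spell out SS. Both groups are passage 1 fibroblasts of C57BL/6J mice with a floxed Pkm allele (Pkm2fl/fl), which LacZ leaves in place, and bFGF was in their growth medium before the treatments. The other LacZ libraries had IL-1b (interleukin-1 beta) at 15 ng/ml or bFGF (basic fibroblast growth factor) at 20 ng/ml for 24 h, with 4 libraries each. The remaining 16 libraries repeat the 4 conditions with iCre, a recombinase that acts on the floxed allele.

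The labels disagree with each other in several places. The treatment tag of the 4 LacZ_TGFB libraries reads LacZ_IL1b, and that of the 4 LacZ_SS libraries reads LacZ_bFGF. The tags of the other LacZ libraries conflict with their titles too: LacZ_FGF is tagged iCre_TNFa and LacZ_ILB is tagged LacZ_Con. The groups here follow the titles, which are also the column names of the count table. The protocol that gives the doses names TAK1fl/fl as the mouse line and TNFa as one of the stimuli, and neither appears in the titles. No label says whether a replicate number stands for a mouse, an isolation or a day, so the spread between libraries of 1 group may be partly technical. Libraries with the same number did vary together across the 4 LacZ conditions (correlation of deviations from the group means 0.24 to 0.80 over 24 library pairs), and the fit pairs them.

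The 8 libraries held 20736203 to 26429059 counts each. Levels below are CPM (counts per 1000000 counts) after scaling by TMM, a factor that aligns the bulk of the genes between libraries, and they are listed in the order of replicate numbers 1 to 4. All 10 fibroblast markers passed the filter on low counts; at an adjusted p under 0.05, 2 of them rose and 6 fell with TGFb (median log2 fold change -0.72), where 27.1% of all genes tested rose and 31.4% fell. Col1a1 was among those that rose. Col1a1, a chain of type I collagen, had 18629.9, 18982, 14961 and 24464 CPM with TGFb, against 10819, 11087, 10032 and 7323 CPM with SS. Vim, the intermediate filament of mesenchymal cells, averaged 3347 ± 399.8 CPM with TGFb and 4505 ± 1405 CPM with SS (SD, n = 4 each). It was called as a fall (log2 fold change -0.36), but the groups overlapped and the pair of replicate 4 rose slightly (0.06). The call was lost when libraries were not paired (-0.43), in a fit of the 8 compared libraries (-0.36) and in several fits that left out libraries. Among 9 cardiomyocyte markers, Myh6, the adult heart myosin, was at 0 in the TGFb libraries and at most 0.0409 CPM in the SS libraries. The 9 together summed to 9.21 to 36.3 CPM with TGFb, against 44.4 to 127 CPM with SS. Only Tnni3 and Tnnt2 passed the filter on low counts, and of these 2, 1 fell and 1 was not called. The other cardiomyocyte markers stayed below 1 CPM in both groups, so the sum rests mainly on these 2. Summed over the 9 endothelial markers, the level was 8.97 to 14.8 CPM with TGFb, against 19.3 to 36.0 CPM with SS. The 13 leukocyte markers summed to 46.4 to 406 CPM with TGFb, against 82.2 to 635 CPM with SS, so the libraries were not free of leukocyte RNA.

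TGFb is made as a latent complex that integrins and matrix proteins hold and release. It binds a pair of receptor kinases, which phosphorylate Smad2 and Smad3, and these enter the nucleus with Smad4. In the heart, the cytokine is best known for turning resting fibroblasts into myofibroblasts, cells that build contractile actin bundles and lay down collagen after injury.

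TGFb changed 58.5% of the genes that could be tested. Of 15887 genes tested, 4299 rose (27.1%) and 4995 fell (31.4%) at an adjusted p under 0.05, by edgeR's quasi-likelihood test with Benjamini-Hochberg adjustment. Of all genes tested, 3486 (21.9%) were called and changed at least 2-fold, 1180 of them upward and 2306 downward. At least 8-fold changes were found for 121 genes that rose and 251 that fell. The 4 TGFb values lay above all 4 SS values for 3337 genes (21%) and below them for 3458 (21.8%). Every count of members below is read against these shares. The split depends on the scaling. The TMM factors were 0.913 to 0.948 in the TGFb libraries and 1.01 to 1.11 in the SS libraries. With total counts only, 2980 genes rose and 6348 fell, so the share of rises among called genes was 31.9% and not 46.3%. That scaling moved the median log2 fold change of all genes to -0.24, from -0.06.

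**Figure D1:**
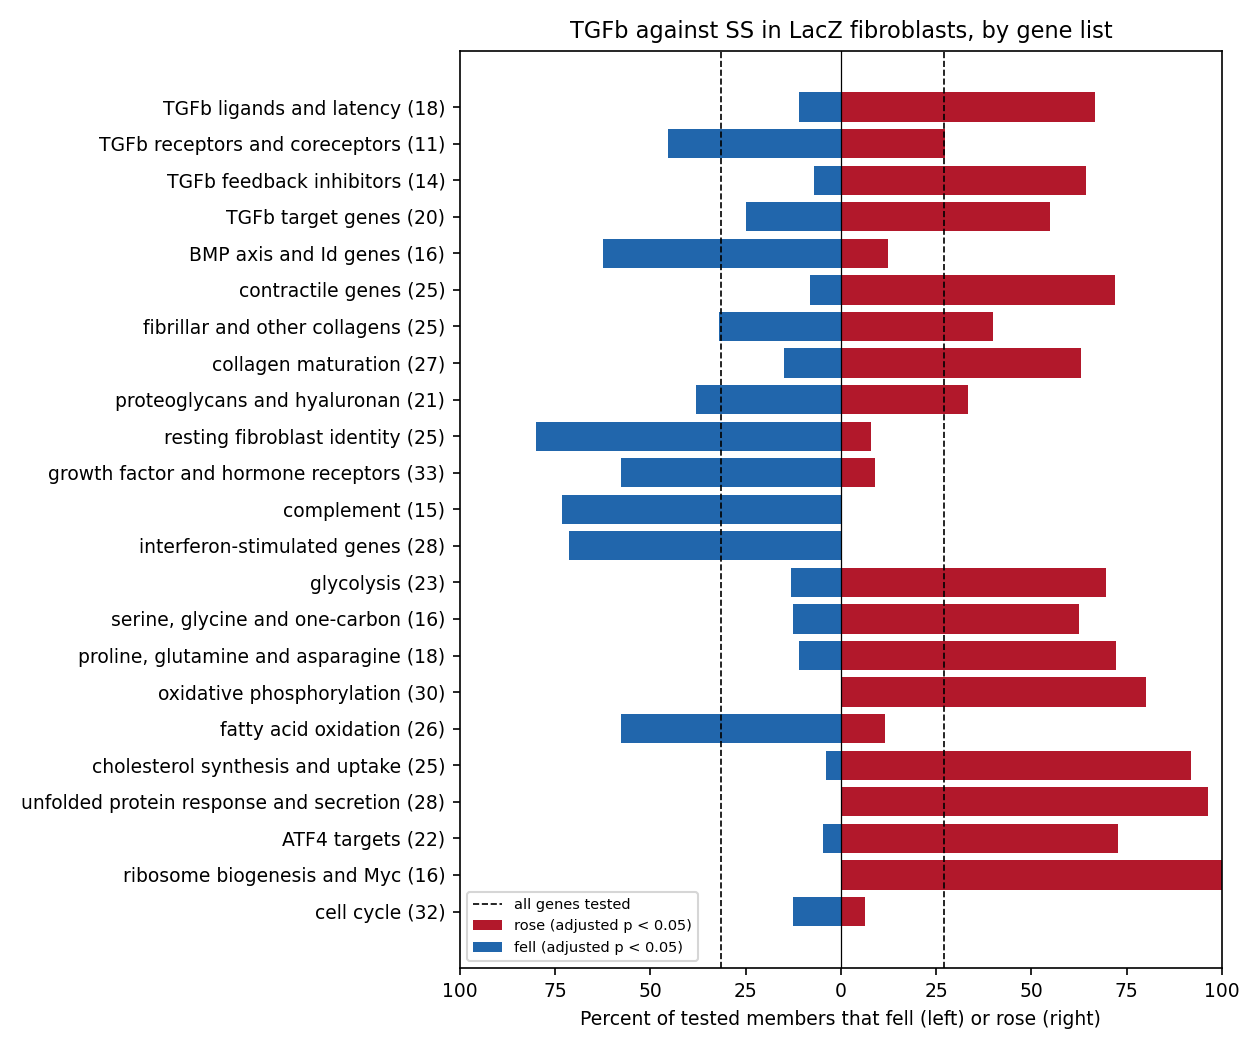
Percent of the tested members of each gene list that rose (right, red) or fell (left, blue) in TGFb libraries relative to SS libraries; the number tested is in brackets and the dashed lines mark all genes tested (27.1% rose, 31.4% fell). Cholesterol, unfolded protein response and ribosome biogenesis lists lie almost wholly to the right, and complement, interferon-stimulated and resting fibroblast lists mostly to the left.

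Among the ligands and the proteins that store or free them, 12 of 18 tested members rose and 2 fell, with a median log2 fold change of 0.42. Tgfb1, the ligand itself, had 156, 167, 171 and 119 CPM with TGFb, against 36.3, 37.8, 43.8 and 38.5 CPM with SS (log2 fold change 1.96 ± 0.11 (SE), adjusted p = 2.1e-08). The groups lay far apart, and all 4 pairs moved alike. Ltbp2, a fibrillin-binding protein of the latent TGFb-binding family, had 2838, 1981, 2895 and 4158 CPM with TGFb, against 140.1, 105, 217 and 862 CPM with SS (log2 fold change 3.70 ± 0.32 (SE), adjusted p = 1.3e-06). Its SS level was highest in replicate 4, and even that value was below every TGFb library. Inhba, which encodes the activin A subunit and so a ligand that also signals through Smad2 and Smad3, rose by 2.40 on the log2 scale. Thbs1, a matrix protein that can activate latent TGFb, rose by 1.54, and Lrrc32, which tethers latent TGFb to the cell surface, rose by 0.80. Tgfb2 (-0.21 ± 0.26, adjusted p = 0.49) was not called, while Inhbb, the subunit of activin B, had 16.1, 14.1, 9.49 and 14.1 CPM with TGFb, against 46.4, 52.0, 39.5 and 75.9 CPM with SS (log2 fold change -1.96 ± 0.35 (SE), adjusted p = 4.9e-04).

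Of 11 receptors and coreceptors, 3 rose and 5 fell. Tgfbr3, or betaglycan, the coreceptor that presents ligand to the signalling receptors, had 5.86, 4.37, 5.82 and 10.8 CPM with TGFb, against 44.7, 50.6, 42.7 and 134 CPM with SS (log2 fold change -3.24 ± 0.24 (SE), adjusted p = 5.6e-07). The highest TGFb library was far below the lowest SS library. Acvrl1, the ALK1 receptor, was also lower in each TGFb library (109.8, 119, 82.1 and 103 CPM) than in any SS library (296, 275, 327 and 171 CPM). Tgfbr2, the receptor that binds TGFb first, fell by 0.53, and Tgfbr1 was not called (0.05 ± 0.13). The BMP receptors Acvr1 and Bmpr2 rose by 0.50 and 0.50, but the groups overlapped for Bmpr2, and its call was lost with total counts only (0.33, adjusted p = 0.097) and without replicate 1 or 3 (0.43 and 0.35, adjusted p = 0.096 and 0.10). With total counts only, or without replicate 1, 1 of the 11 rose.

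Of 8 Smads, 1 rose and 4 fell, and without replicate 1 or 2 the falls numbered 2. Smad7, the inhibitory Smad that competes for the receptor, had 129.7, 152, 139.8 and 105 CPM with TGFb, against 83.0, 76.4, 69.4 and 23.5 CPM with SS (log2 fold change 1.23 ± 0.21 (SE), adjusted p = 2.7e-04). Smad3, a signal carrier of the pathway, had 55.6, 48.9, 59.998 and 56.7 CPM with TGFb, against 85.5, 95.8, 124 and 162 CPM with SS (log2 fold change -1.05 ± 0.12 (SE), adjusted p = 9.5e-06). Its 4 TGFb values lay within a narrow band below the SS values. Smad9, a carrier of the bone morphogenetic protein (BMP) branch, fell by 2.16, whereas Smad2 (0.04 ± 0.08) was not called.

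The feedback inhibitors of the pathway, which TGFb is known to induce, rose in 9 of 14 cases and fell in 1, with a median log2 fold change of 0.85. Fstl3, a secreted trap for activins, had 389, 398, 392 and 317 CPM with TGFb, against 40.5, 41.4, 41.3 and 31.2 CPM with SS (log2 fold change 3.28 ± 0.10 (SE), adjusted p = 3.0e-10). The response was even, with pair log2 ratios of 3.26, 3.26, 3.25 and 3.34 in replicates 1 to 4. Pmepa1, a membrane protein that keeps Smads from the receptor, had 1107, 1435, 1175 and 1368 CPM with TGFb, against 229, 269, 164 and 230.1 CPM with SS (log2 fold change 2.52 ± 0.15 (SE), adjusted p = 4.1e-08). Skil, the corepressor SnoN, had 171, 148, 177 and 172 CPM with TGFb, against 48.6, 49.5, 42.6 and 46.1 CPM with SS (log2 fold change 1.84 ± 0.09 (SE), adjusted p = 1.2e-08). Both kept to narrow ranges in each group. Ldlrad4, Spsb1, Tgif1 and Smurf1 rose as well, by 1.57, 1.53, 0.90 and 0.50. Part of the exon bases of Fstl3 (47.3%) and Ldlrad4 (52.1%) lie opposite Prss57 and Fam210a, which are named only for this overlap, and without a stated strand setting reads of such partners cannot be told apart. Prss57 averaged 1.02 CPM with TGFb and 0.33 CPM with SS, and Fam210a 23.7 CPM with TGFb and 34.2 CPM with SS. Peg10, an imprinted retrotransposon-derived gene, was the member that fell (-2.54 ± 0.26).

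Of 16 genes of the BMP axis, 10 fell and 2 rose, with a median log2 fold change of -0.81. The Id genes, which encode helix-loop-helix inhibitors of differentiation and are the classical BMP targets, all fell. Id2 had 9.36, 16.3, 9.54 and 17.5 CPM with TGFb, against 53.7, 60.7, 37.6 and 36.1 CPM with SS (log2 fold change -1.82 ± 0.20 (SE), adjusted p = 7.6e-06). Id1, Id3 and Id4 fell by 0.97, 0.72 and 2.03, although the call for Id3 was lost without pair 1 (-0.57, adjusted p = 0.053). Among the ligands, Bmp4 had 23.5, 30.6, 16.9 and 10.7 CPM with TGFb, against 148, 149, 86.8 and 25.2 CPM with SS (log2 fold change -2.11 ± 0.33 (SE), adjusted p = 1.8e-04). The groups overlapped for Bmp4, with replicate 4 low in both, yet each pair fell. Bmp2 fell by 2.61, and Chrdl1, a BMP antagonist, by 4.34.

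**Figure D2:**
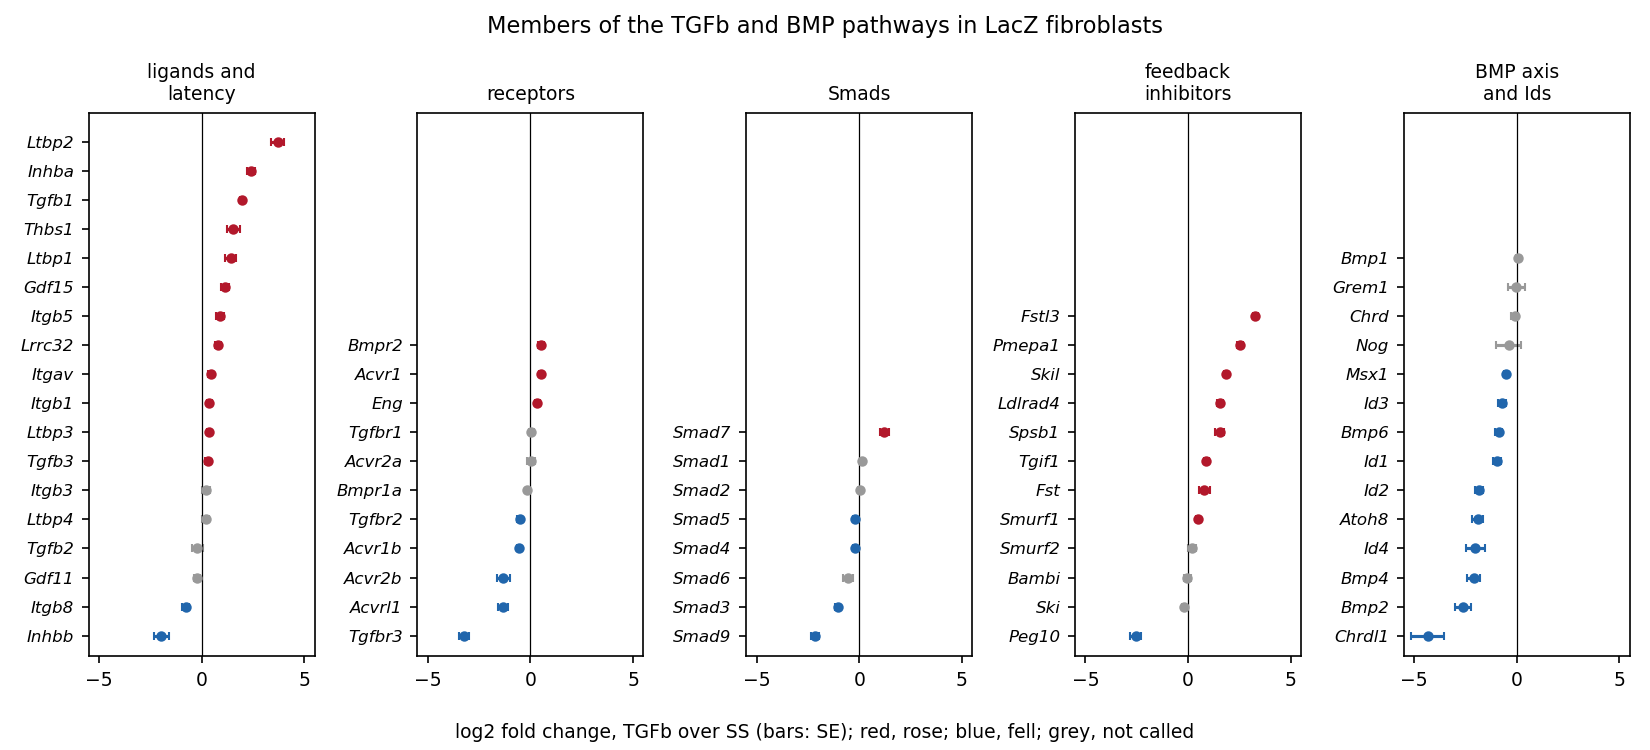
Log2 fold change of TGFb over SS (x axis, bars show SE) for most members of the TGFb and BMP pathways, grouped by role and ordered by size; red rose, blue fell and grey was not called. Ligands and feedback inhibitors lie mainly to the right, while Tgfbr3, Smad9 and the Id genes lie to the left.

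Textbook TGFb targets gave 11 rises and 5 falls among 20. Ccn2, the matricellular factor CTGF, had 6129, 5517, 7157 and 3835 CPM with TGFb, against 564, 379, 1198 and 291 CPM with SS (log2 fold change 3.39 ± 0.32 (SE), adjusted p = 2.3e-06). Il11, a cytokine that fibroblasts secrete on TGFb stimulation, had 26.0, 31.4, 78.5 and 51.3 CPM with TGFb, against 1.28, 0.645, 0.982 and 1.97 CPM with SS (log2 fold change 5.15 ± 0.38 (SE), adjusted p = 4.8e-07). For both genes the lowest TGFb library exceeded the highest SS library. Nox4, a hydrogen peroxide-producing oxidase, rose by 1.81, and Ankrd1, a cardiac stretch-response protein, by 2.78. Other members of the list moved down. Snai2, a transcription factor of epithelial-mesenchymal transition, had 23.1, 27.0, 19.4 and 18.3 CPM with TGFb, against 68.4, 70.5, 61.3 and 47.6 CPM with SS (log2 fold change -1.502 ± 0.17 (SE), adjusted p = 6.6e-06). Tgfbi, a matrix protein named for its induction by TGFb, fell by 0.85, a call that was lost without TGFb replicate 3 (-0.64, adjusted p = 0.057). The call was also lost without replicate 2 in both groups (-0.89, adjusted p = 0.055) and with no filter on low counts (-0.82, adjusted p = 0.052). Angptl4, an inhibitor of lipoprotein lipase, fell by 2.62 in the fit, but replicate 3 went the other way, with 12.9, 10.4, 40.9 and 10.9 CPM with TGFb, against 125, 128, 36.2 and 148 CPM with SS.

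Contractile genes rose in 18 of 25 cases and fell in 2 (0 without the block, 4 without replicate 4), with a median log2 fold change of 1.11. Acta2, the smooth muscle actin that defines myofibroblasts, had 2953, 4448, 2038 and 5888 CPM with TGFb, against 393, 466, 353 and 951 CPM with SS (log2 fold change 2.82 ± 0.50 (SE), adjusted p = 4.2e-04). Tagln, which encodes the actin-binding protein SM22, had 2222, 3501, 2336 and 2948 CPM with TGFb, against 259.8, 277, 305 and 437 CPM with SS (log2 fold change 3.09 ± 0.42 (SE), adjusted p = 6.2e-05). For both, replicate 4 had the highest SS level, and every TGFb library lay above it. Tagln shares 62.4% of its exon bases with a predicted gene on the opposite strand, which averaged 11.7 CPM with TGFb and 1.92 CPM with SS. Cnn1, or calponin, had 26.2, 46.8, 20.2 and 249 CPM with TGFb, against 1.92, 3.45, 1.06 and 51.8 CPM with SS (log2 fold change 3.21 ± 0.52 (SE), adjusted p = 2.5e-04). Replicate 4 stood apart in both groups, so the groups overlapped even though all 4 pairs rose, and without the replicate block Cnn1 was not called (2.55, adjusted p = 0.10). Tpm1, Actn1, Myl9 and Tpm2 rose by 2.03, 1.67, 1.65 and 1.31. The list was not uniform. Mylk, the kinase that activates myosin in smooth muscle, had 2.91, 1.89, 2.10 and 24.5 CPM with TGFb, against 19.4, 22.9, 17.6 and 170.3 CPM with SS (log2 fold change -2.96 ± 0.34 (SE), adjusted p = 1.7e-05), again with replicate 4 highest in each group and with no call without the block (-2.86, adjusted p = 0.056). Myh11, the smooth muscle myosin heavy chain, was not called (-1.55 ± 1.04, adjusted p = 0.22), though without TGFb replicate 4 it was (-3.53, adjusted p = 2.6e-04). Markers of mural cells, which share part of this list, gave 1 rise and 3 falls among 8: Cspg4 rose by 2.59, while Notch3 fell by 2.57. In the 250 bases before the RefSeq gene starts (GRCm38.p6), the serum response factor motif known as the CArG box occurred in 3 of the 20 contractile genes with an entry (Cnn2, Myl9 and Myl6), against 1.62% of 27018 genes. The Smad motif CAGACA, searched on both strands as all motifs here, occurred in 4 of these 20, in 4 of 13 textbook targets and in 3 of 7 feedback inhibitors, against 19.3% of all genes. The longer Smad motif GTCTAGAC, present in 0.2% of all genes, was in none of the targets and inhibitors with an entry.

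Of 27 actin and adhesion genes, 13 rose and 5 fell, with a median of 0.33, and the integrins moved in both directions. Itga5, the fibronectin receptor subunit, had 847, 739, 1067 and 892 CPM with TGFb, against 100.3, 95.1, 123 and 137 CPM with SS (log2 fold change 2.95 ± 0.15 (SE), adjusted p = 1.4e-08). Itga8, a subunit for other matrix ligands, had 3.74, 3.84, 2.87 and 98.8 CPM with TGFb, against 58.7, 72.7, 58.0 and 248 CPM with SS (log2 fold change -2.88 ± 0.69 (SE), adjusted p = 0.0036), and its replicate 4 was highest in both groups. Itga8 changed by -4.35 without TGFb replicate 4, and without the block it was not called (-1.998, adjusted p = 0.10). Csrp2, a muscle LIM protein, rose by 2.47. The collagen receptor subunits Itga1 and Itga2 fell by 1.80 and 1.93.

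**Figure D3:**
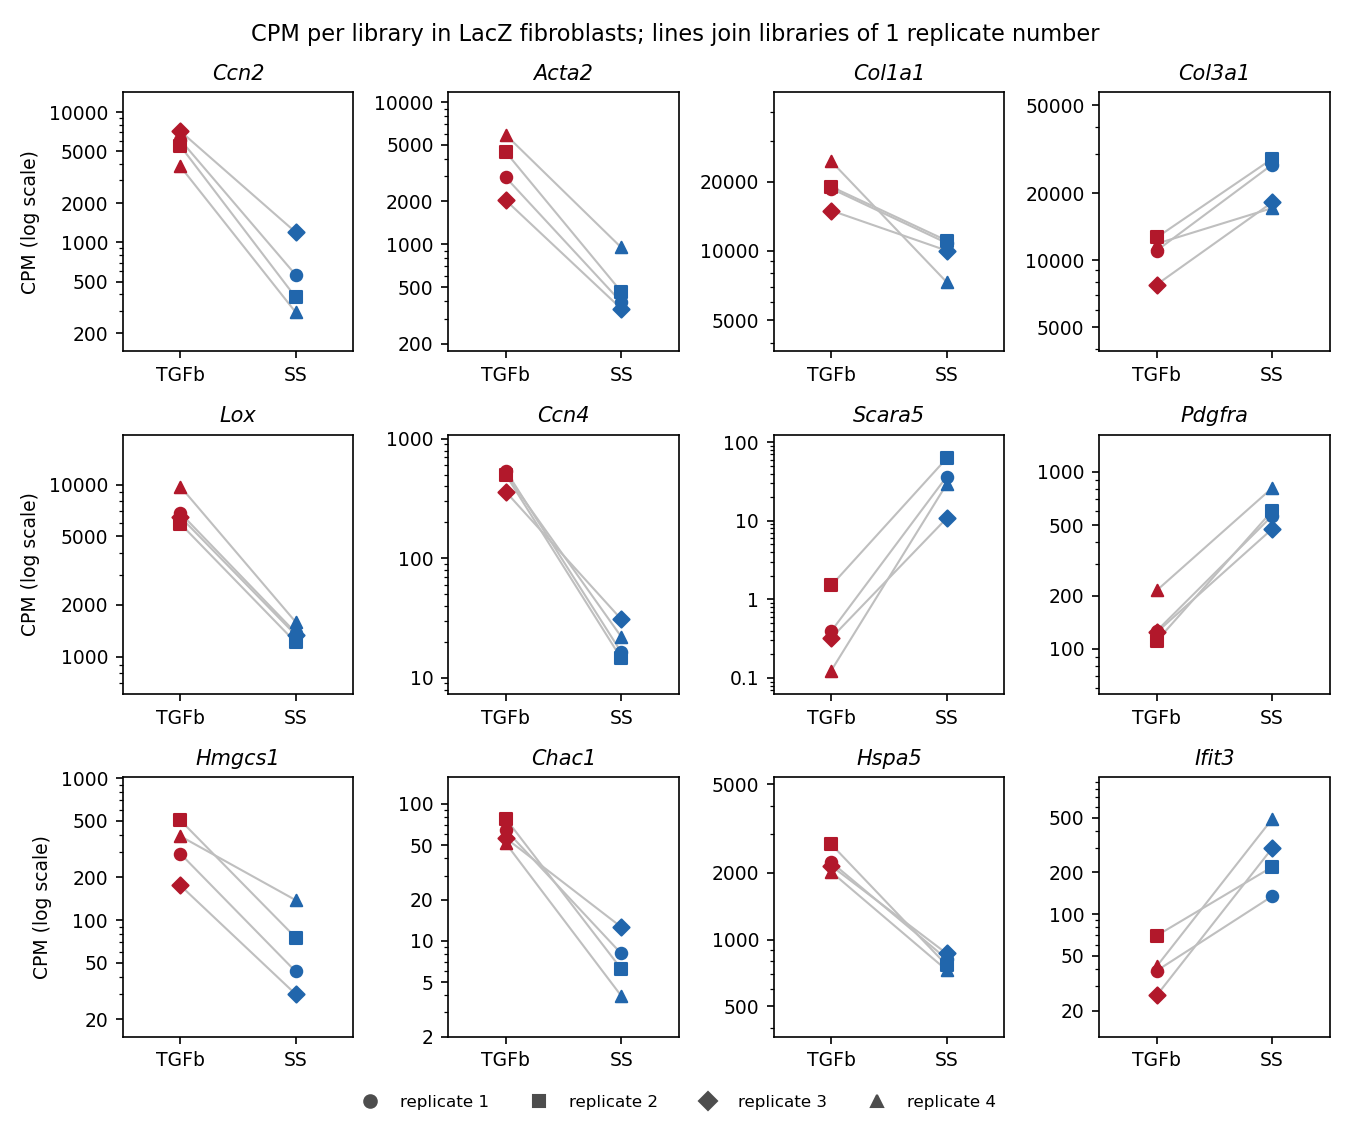
CPM on log axes for 12 genes in the 4 TGFb libraries (left, red) and the 4 SS libraries (right, blue); lines join libraries of the same replicate number and symbols mark the number. The groups do not overlap in any of the 12 genes shown, with Scara5, Col3a1, Pdgfra and Ifit3 lower and the others higher with TGFb.

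Collagens moved in both directions, with 10 rises and 8 falls among 25. Col1a1, whose levels are given above, rose by 1.03 ± 0.24 (log2 ± SE, adjusted p = 0.0023), and by 0.68 without TGFb replicate 4. Its partner chain Col1a2 (0.45 ± 0.19, adjusted p = 0.06) was not called, but it was without TGFb replicate 1, 2 or 3 (0.53 to 0.61, adjusted p = 0.021 to 0.048). DESeq2 called it too (0.46, adjusted p = 0.024). Without TGFb replicate 4 the log2 fold change of Col1a2 was smaller (0.19, adjusted p = 0.19), as it was with total counts only (0.26, adjusted p = 0.18). Col3a1, the chain of the finer type III fibrils, had 11058, 12666, 7773 and 11871 CPM with TGFb, against 26933, 28609, 18211 and 17172 CPM with SS (log2 fold change -1.04 ± 0.19 (SE), adjusted p = 4.4e-04). As a share of each library, Col1a1 took 1.42 to 2.23% of the counts with TGFb, against 0.811 to 1.16% with SS. Col3a1 took 0.737 to 1.18% with TGFb, against 1.84 to 2.997% with SS. Neither share overlapped between the groups. Col12a1, a fibril-associated collagen, had 1253, 719, 746 and 2546 CPM with TGFb, against 209, 198, 201 and 370.1 CPM with SS (log2 fold change 2.31 ± 0.22 (SE), adjusted p = 2.2e-06), and Col5a2, which sets fibril diameter, rose by 1.25. The beaded-filament chains Col6a1 and Col6a2 fell by 1.56 and 1.4998, and Col14a1, another fibril-associated collagen, by 1.90. Fn1, fibronectin, was not called (0.06 ± 0.20, adjusted p = 0.81) and moved up in 2 of 4 pairs.

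Enzymes and chaperones that mature collagen rose in 17 of 27 cases and fell in 4 (1 without the block), with a median of 0.78. Lox, the lysyl oxidase that crosslinks collagen and elastin, had 6831, 5925, 6488 and 9738 CPM with TGFb, against 1377, 1210.2, 1337 and 1591 CPM with SS (log2 fold change 2.40 ± 0.32 (SE), adjusted p = 4.3e-05). Loxl4 and Loxl3 of the same family rose by 2.25 and 1.95. The collagen chaperone Serpinh1 rose by 0.96, and the prolyl isomerase Fkbp10 by 1.35. Adamts2, which removes the N-propeptide of procollagen, fell by 0.68.

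Glycoproteins and elastic fibre genes gave 12 rises and 12 falls among 32. Eln, elastin, had 1306, 6171, 765 and 21714 CPM with TGFb, against 351, 629, 232 and 398 CPM with SS (log2 fold change 3.67 ± 0.77 (SE), adjusted p = 0.0014). The SS values lay between 232 and 629 CPM, and the TGFb values of replicates 2 and 4 were several times those of replicates 1 and 3. Without TGFb replicate 4 the log2 fold change of Eln was 2.40. Ccn4, the matricellular factor WISP1, had 542, 501, 361 and 506 CPM with TGFb, against 16.5, 14.6, 31.1 and 22.2 CPM with SS (log2 fold change 4.50 ± 0.34 (SE), adjusted p = 6.7e-07). Postn, periostin, a marker of activated cardiac fibroblasts, rose by 1.38, but by 0.90 without TGFb replicate 4, and it was not called without the block (1.19, adjusted p = 0.051). Tnc, tenascin C, rose by 2.10. Tnxb, tenascin X, which organises collagen in resting tissue, had 4.48, 4.03, 4.24 and 6.68 CPM with TGFb, against 168, 288, 49.0 and 226 CPM with SS (log2 fold change -5.10 ± 0.38 (SE), adjusted p = 6.1e-07). The basement membrane genes Nid2 and Nid1 fell by 3.13 and 1.05, and the fibulin Efemp1 by 2.19.

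Proteoglycans and hyaluronan genes gave 7 rises and 8 falls among 21. Acan, the large cartilage proteoglycan aggrecan, had 10.2, 44.7, 1.37 and 118 CPM with TGFb, against 0.128, 0.460, 0 and 0.394 CPM with SS (log2 fold change 7.22 ± 0.63 (SE), adjusted p = 1.9e-06), and its TGFb level differed widely between replicates. Vcan, the related versican, rose by 1.498, and the hyaluronan synthase Has2 by 3.01, together with the hyaluronan receptor Cd44 (1.84). Prelp, a small leucine-rich proteoglycan that binds collagen, had 297, 255, 224 and 104 CPM with TGFb, against 1960.5, 1769, 2437 and 731 CPM with SS (log2 fold change -2.95 ± 0.18 (SE), adjusted p = 5.1e-08). Ogn, Lum and Dcn of the same family fell by 3.05, 2.26 and 1.08, while Bgn was not called (0.19 ± 0.13).

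Matrix proteases and their inhibitors gave 12 rises and 12 falls among 30. The inhibitors Timp1 and Timp3 rose by 2.35 and 1.40, and Timp2 fell by 1.25. Mmp2, gelatinase A, had 359, 482, 297 and 642 CPM with TGFb, against 1306, 1653, 820.5 and 2245 CPM with SS (log2 fold change -1.73 ± 0.11 (SE), adjusted p = 5.5e-08). Plat, which encodes tissue plasminogen activator, fell by 1.87, and the aggrecanase Adamts5 by 2.09.

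Genes of resting cardiac fibroblasts fell in 20 of 25 cases and rose in 2, with a median of -1.57. Scara5, a ferritin receptor that marks a stem-like stromal state, had 0.394, 1.51, 0.323 and 0.124 CPM with TGFb, against 36.4, 62.3, 10.8 and 29.2 CPM with SS (log2 fold change -5.92 ± 0.60 (SE), adjusted p = 5.9e-06). Clec3b, or tetranectin, had 0.887, 1.75, 1.33 and 0.124 CPM with TGFb, against 24.0, 43.2, 5.48 and 31.9 CPM with SS (log2 fold change -4.63 ± 0.70 (SE), adjusted p = 1.3e-04). In TGFb replicate 4 both lay at the detection floor, since 3 counts equal 0.121 to 0.148 CPM in the TGFb libraries, and in the other replicates they lay above it. Pdgfra, the growth factor receptor used to mark fibroblasts, had 126, 111, 124 and 214 CPM with TGFb, against 564, 601, 476 and 811 CPM with SS (log2 fold change -2.11 ± 0.14 (SE), adjusted p = 7.6e-08). Tcf21, a transcription factor needed for the cardiac fibroblast lineage, had 52.0, 86.2, 35.9 and 38.3 CPM with TGFb, against 194, 209, 184 and 64.5 CPM with SS (log2 fold change -1.57 ± 0.20 (SE), adjusted p = 3.6e-05). Its groups overlapped through the low replicate 4, though each pair fell. Gsn, the actin-severing gelsolin, fell by 2.23, and Cd34 by 1.84. The exceptions were Gfpt2 and Pi16, which rose by 1.19 and 0.82, Pi16 with no call without the block (0.79, adjusted p = 0.17).

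Of 48 transcription factors of fibroblasts and other lineages, 19 rose and 14 fell. Meox1, a homeobox factor active in injured heart fibroblasts, had 128, 105, 178 and 42.1 CPM with TGFb, against 3.07, 1.57, 7.85 and 8.45 CPM with SS (log2 fold change 4.41 ± 0.49 (SE), adjusted p = 1.1e-05). Scx, the tendon factor scleraxis, had 7.09, 10.7, 9.62 and 20.1 CPM with TGFb, against 1.45, 1.34, 1.15 and 2.65 CPM with SS (log2 fold change 2.82 ± 0.46 (SE), adjusted p = 1.9e-04). Runx1, a Runt-domain factor better known from blood, had 84.9, 76.8, 64.1 and 66.2 CPM with TGFb, against 10.6, 9.90, 13.3 and 19.0 CPM with SS (log2 fold change 2.51 ± 0.28 (SE), adjusted p = 1.3e-05). None of these had overlapping groups. Lef1, a Wnt effector, rose by 3.30, and Sox9, a cartilage factor, by 0.50. The cardiac factors Gata4 and Mef2c fell by 0.62 and 2.14, and Prrx1, a mesenchymal homeobox factor, by 1.38.

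Secreted growth factors and cytokines changed in both directions, with 17 rises and 18 falls among 43. Lif, a cytokine of the interleukin-6 family, had 100.1, 77.7, 171 and 72.3 CPM with TGFb, against 4.64, 4.56, 9.45 and 5.98 CPM with SS (log2 fold change 4.07 ± 0.13 (SE), adjusted p = 3.0e-10). Il6 itself had 34.2, 51.3, 29.5 and 34.5 CPM with TGFb, against 4.60, 2.07, 3.64 and 1.72 CPM with SS (log2 fold change 3.68 ± 0.26 (SE), adjusted p = 3.8e-07). Of receptor chains for this family, Lifr fell by 2.54, Il6ra by 1.80, Il11ra1 by 1.14 and the shared signalling chain Il6st by 1.42. Hbegf, a ligand of the EGF receptor, had 204, 199, 410.5 and 125 CPM with TGFb, against 19.2, 14.4, 42.2 and 10.6 CPM with SS (log2 fold change 3.50 ± 0.26 (SE), adjusted p = 4.8e-07). Pdgfc rose by 3.89, Vegfa by 1.98, Igf1 by 1.56 and Bdnf by 1.70. Vegfd, a lymphatic growth factor, fell by 2.91. Angpt2, a ligand of the Tie2 receptor, had 0.246, 1.99, 0.323 and 5.76 CPM with TGFb, against 49.2, 126, 10.5 and 86.9 CPM with SS (log2 fold change -5.31 ± 0.56 (SE), adjusted p = 7.8e-06). Ptn, the heparin-binding factor pleiotrophin, had 116, 158, 50.0 and 74.0 CPM with TGFb, against 1542, 1546, 494 and 1088 CPM with SS (log2 fold change -3.55 ± 0.19 (SE), adjusted p = 1.7e-08).

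Growth factor and hormone receptors fell in 19 of 33 cases and rose in 3. Met, the receptor of hepatocyte growth factor, had 4.34, 2.48, 4.32 and 4.06 CPM with TGFb, against 36.9, 38.5, 24.0 and 21.2 CPM with SS (log2 fold change -2.91 ± 0.24 (SE), adjusted p = 8.2e-07). Agtr1a, the angiotensin II receptor of heart fibroblasts, had 0.148, 0.923, 0 and 0.871 CPM with TGFb, against 5.71, 8.52, 1.64 and 5.30 CPM with SS (log2 fold change -3.48 ± 0.52 (SE), adjusted p = 9.2e-05). Ednra, the endothelin receptor, fell by 2.72. Tnfrsf11b, a decoy receptor named osteoprotegerin, rose, with 336, 360.5, 223 and 193 CPM with TGFb, against 26.9, 16.8, 34.7 and 6.20 CPM with SS (log2 fold change 3.98 ± 0.36 (SE), adjusted p = 2.4e-06).

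Of 28 Wnt pathway members, 8 rose and 15 fell: the ligands Wnt10b, Wnt2 and Wnt11 rose by 3.79, 2.64 and 2.63, while Sfrp2, a secreted antagonist, fell by 3.66. Of 22 Notch and Hedgehog members, 3 rose and 8 fell, with 13 falls without replicate 4 and 5 without the block. Notch4 had 141, 119.9, 126 and 68.5 CPM with TGFb, against 3.96, 3.13, 12.02 and 2.90 CPM with SS (log2 fold change 4.54 ± 0.37 (SE), adjusted p = 1.2e-06). Notch3 had 82.0, 69.2, 36.7 and 43.1 CPM with TGFb, against 513, 437, 444 and 115 CPM with SS (log2 fold change -2.57 ± 0.31 (SE), adjusted p = 2.5e-05). These receptors of 1 family moved in opposite directions, with no overlap of groups in either.

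Cholesterol genes rose in 23 of 25 cases, with 1 fall and a median log2 fold change of 2.19. Cells make cholesterol from acetyl-CoA or take it up from lipoproteins, and the factor SREBP2 switches on both routes when sterol is short. Hmgcs1, at the start of the route, had 294, 505, 175 and 390.0 CPM with TGFb, against 43.4, 75.3, 30.1 and 138 CPM with SS (log2 fold change 2.39 ± 0.22 (SE), adjusted p = 2.0e-06). Fdps, Cyp51 and Sqle rose by 3.29, 3.10 and 2.62, and Srebf2, which encodes SREBP2, by 1.38. Abca1, the transporter that exports cholesterol, was the member that fell, with 52.7, 22.6, 48.1 and 54.9 CPM with TGFb, against 368, 367, 289 and 338 CPM with SS (log2 fold change -2.996 ± 0.24 (SE), adjusted p = 9.3e-07).

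Among serine, glycine and one-carbon genes, 10 of 16 rose and 2 fell, and among proline, glutamine and asparagine genes 13 of 18 rose and 2 fell. Shmt2, the mitochondrial enzyme that takes a carbon from serine, had 223, 253, 227 and 188 CPM with TGFb, against 46.3, 42.6, 74.7 and 36.5 CPM with SS (log2 fold change 2.20 ± 0.18 (SE), adjusted p = 6.4e-07). Phgdh, Psat1 and Psph, the successive steps of serine synthesis, rose by 1.81, 1.61 and 2.43, and Mthfd2 of the folate cycle by 2.58. The cytosolic counterpart Shmt1 fell by 1.70. For proline, which collagen needs in large amounts, Aldh18a1 and Pycr1 rose by 1.64 and 1.95. Glul, glutamine synthetase, fell by 1.59.

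Several of these genes are known targets of ATF4, the transcription factor of the integrated stress response. Of 22 such targets, 16 rose and 1 fell, with a median of 1.73, and Atf4 itself had 342, 478, 315 and 415 CPM with TGFb, against 147, 134, 180.1 and 125 CPM with SS (log2 fold change 1.41 ± 0.19 (SE), adjusted p = 4.0e-05). Chac1, which breaks down glutathione, had 64.5, 78.0, 56.3 and 51.6 CPM with TGFb, against 8.09, 6.26, 12.6 and 3.98 CPM with SS (log2 fold change 3.16 ± 0.33 (SE), adjusted p = 7.0e-06). Asns, asparagine synthetase, had 294, 345, 279.7 and 214 CPM with TGFb, against 62.0, 53.2, 100.4 and 27.5 CPM with SS (log2 fold change 2.37 ± 0.23 (SE), adjusted p = 4.0e-06). Fgf21, a hormone of nutrient stress, had 14.8, 20.0, 13.1 and 14.4 CPM with TGFb, against 0.170, 0.184, 0.123 and 0 CPM with SS (log2 fold change 7.05 ± 0.34 (SE), adjusted p = 8.8e-09). Its SS counts were at or near the floor of 3 counts. Ddit3, which encodes the stress factor CHOP and is also counted as a target, was not called (0.08 ± 0.14, adjusted p = 0.64).

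The element that ATF4 binds with C/EBP partners was looked for as TGATGNAA, on both strands, in the 250 bases before each RefSeq gene start (GRCm38.p6). It occurred in 8 of the 20 ATF4 targets with an entry, against 3.9% of 27018 genes. Among the risen targets holding it were Chac1, Asns and Fgf21, while Vldlr, the target that fell, holds it too (-0.56 ± 0.21, adjusted p = 0.033). The call for Vldlr was lost without any single TGFb library, or without SS replicate 1 or 2 (-0.59 to -0.44, adjusted p = 0.059 to 0.13). A match is a description of these letters and says nothing about binding in these cells. The windows of the 3 risen genes described above are shown 5′ to 3′ on the gene's strand, with the match, on either strand, in capitals. No match in a window shown overlapped one of another motif. They lie at chr2:119350992-119351241 (plus strand), chr6:7693210-7693459 (minus strand) and chr7:45615491-45615740 (minus strand).
Chac1: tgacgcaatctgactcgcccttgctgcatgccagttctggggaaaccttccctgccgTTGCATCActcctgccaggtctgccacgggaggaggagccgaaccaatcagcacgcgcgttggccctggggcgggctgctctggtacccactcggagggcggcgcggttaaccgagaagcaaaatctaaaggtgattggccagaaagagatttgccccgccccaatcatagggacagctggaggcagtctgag
Asns: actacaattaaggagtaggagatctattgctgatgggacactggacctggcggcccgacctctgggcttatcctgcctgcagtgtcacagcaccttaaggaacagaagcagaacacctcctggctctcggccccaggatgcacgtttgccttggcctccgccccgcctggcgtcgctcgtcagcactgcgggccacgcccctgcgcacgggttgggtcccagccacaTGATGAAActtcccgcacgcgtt
Fgf21: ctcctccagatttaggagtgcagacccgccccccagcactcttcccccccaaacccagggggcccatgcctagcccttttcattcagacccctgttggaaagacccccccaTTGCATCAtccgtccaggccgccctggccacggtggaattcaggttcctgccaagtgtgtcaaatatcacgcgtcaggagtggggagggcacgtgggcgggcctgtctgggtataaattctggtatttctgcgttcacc
The match starts 193 bases before the gene start in Chac1, 23 bases before it in Asns and 139 bases before it in Fgf21.

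Glycolysis genes rose in 16 of 23 cases and fell in 3, with a median of 0.70. Hk2, the inducible hexokinase at the entry of the pathway, had 103, 97.3, 123 and 118 CPM with TGFb, against 10.5, 9.53, 14.8 and 23.4 CPM with SS (log2 fold change 2.96 ± 0.19 (SE), adjusted p = 9.7e-08). Slc16a3, the lactate exporter, had 66.4, 84.4, 67.8 and 162 CPM with TGFb, against 20.4, 20.2, 22.5 and 12.6 CPM with SS (log2 fold change 2.39 ± 0.37 (SE), adjusted p = 1.7e-04). Slc2a1, the glucose transporter GLUT1, and Ldha rose by 1.63 and 1.17. Pkm, pyruvate kinase, the gene that carries the floxed exon, had 1321, 1527, 1432 and 1724 CPM with TGFb, against 748, 635, 1132 and 593 CPM with SS (log2 fold change 0.99 ± 0.19 (SE), adjusted p = 4.3e-04). Its counts cover the whole gene and do not tell the PKM1 and PKM2 forms apart. Hnrnpa1, Srsf3 and Ptbp1, splicing factors known to act on Pkm, rose by 1.40, 0.82 and 0.36, of which Ptbp1 was not called with total counts only (0.18, adjusted p = 0.079). The list of Pkm splicing and related regulators gave 7 rises and 0 falls among 11 tested. Map3k7, which encodes the TAK1 kinase named in the protocol, was not called (0.12 ± 0.07, adjusted p = 0.19), but it was without TGFb replicate 2 (0.23, adjusted p = 0.0038).

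All 7 pentose phosphate genes rose, by 0.41 to 0.87. In the TCA cycle and pyruvate entry 14 of 30 rose and 6 fell, with Idh3a and Mdh2 up by 1.32 and 1.16 and the pyruvate dehydrogenase kinase Pdk4 down by 1.88. With total counts only, 9 rose and 9 fell there. Of 30 oxidative phosphorylation genes, 24 rose and 0 fell, but the steps were small, with a median of 0.39, and with total counts only 14 rose. Cycs, cytochrome c, had 64.9, 90.1, 77.9 and 65.1 CPM with TGFb, against 19.1, 17.6, 26.2 and 21.03 CPM with SS (log2 fold change 1.83 ± 0.12 (SE), adjusted p = 8.3e-08). Fatty acid oxidation went the other way, with 15 falls and 3 rises among 26. Lpl, the lipase that frees fatty acids from lipoproteins, had 22.0, 24.8, 17.3 and 10.8 CPM with TGFb, against 237, 231, 156 and 100.2 CPM with SS (log2 fold change -3.26 ± 0.12 (SE), adjusted p = 1.5e-09). Cpt1a, which gates fatty acid entry into mitochondria, had 90.2, 71.2, 80.7 and 123 CPM with TGFb, against 234, 229.6, 218 and 232 CPM with SS (log2 fold change -1.35 ± 0.11 (SE), adjusted p = 3.3e-07), and the fatty acid transporter Cd36 fell by 2.88.

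Genes of the unfolded protein response and the secretory pathway rose in 27 of 28 cases, with a median of 1.06, and Sel1l (0.06 ± 0.10) was the member not called. Hspa5, the chaperone BiP of the endoplasmic reticulum, had 2231, 2685, 2146 and 2016 CPM with TGFb, against 818, 766, 865 and 728 CPM with SS (log2 fold change 1.51 ± 0.11 (SE), adjusted p = 1.6e-07). Calr, the calcium-binding chaperone calreticulin, had 2055, 2595, 1891 and 2369 CPM with TGFb, against 1135, 1111, 1264 and 974 CPM with SS (log2 fold change 1.00 ± 0.13 (SE), adjusted p = 1.7e-05). Xbp1 and Creb3l1, transcription factors of this pathway, rose by 1.01 and 1.09, and Manf and Hyou1 by 1.73 and 1.72.

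The endoplasmic reticulum stress element, CCAAT followed by CCACG after 9 bases of any kind, was searched in the same way. It was found in 7 of the 23 members with an entry (Hspa5, Hsp90b1, Calr, Canx, Pdia6, Dnajc3 and Creld2), against 0.13% of 27018 genes. All 7 of these genes rose, as did 27 of the 28 tested members of the list, so the element does not set them apart. The windows of Hspa5 and Calr are shown 5′ to 3′ on the gene's strand as the chaperones described above that hold the element, which is in capitals on either strand. They lie at chr2:34771840-34772089 (plus strand) and chr8:84846932-84847181 (minus strand).
Hspa5: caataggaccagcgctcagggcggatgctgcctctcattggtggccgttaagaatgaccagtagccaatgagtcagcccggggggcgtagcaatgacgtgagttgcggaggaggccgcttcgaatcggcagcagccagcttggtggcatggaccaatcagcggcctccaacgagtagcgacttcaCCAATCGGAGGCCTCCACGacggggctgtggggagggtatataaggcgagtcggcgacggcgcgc
Calr: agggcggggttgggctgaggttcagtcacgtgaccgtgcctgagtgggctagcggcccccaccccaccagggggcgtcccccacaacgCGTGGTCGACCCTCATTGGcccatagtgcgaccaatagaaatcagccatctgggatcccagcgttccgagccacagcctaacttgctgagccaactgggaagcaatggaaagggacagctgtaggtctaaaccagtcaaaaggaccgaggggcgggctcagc
The element begins 65 bases before the gene start in Hspa5 and 162 bases before it in Calr.

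Ribosome biogenesis genes all rose, 16 of 16, with a median of 0.94, and Myc, a driver of this programme, had 45.6, 50.4, 54.1 and 35.5 CPM with TGFb, against 11.3, 10.5, 12.8 and 18.9 CPM with SS (log2 fold change 1.78 ± 0.19 (SE), adjusted p = 6.0e-06). Nop56 and Fbl, proteins of the small nucleolar complexes, rose by 1.69 and 1.32. Of 32 cell cycle genes, 2 rose, 4 fell and 26 were not called, but the falls numbered 8 with total counts only, 10 in a fit of the 8 compared libraries and 8 without replicate 4. Mki67, the proliferation antigen, had 10.9, 3.93, 21.2 and 9.45 CPM with TGFb, against 25.4, 18.6, 78.4 and 7.16 CPM with SS (log2 fold change -1.29 ± 0.57 (SE), adjusted p = 0.068), lower in 3 of 4 pairs. It was called as a fall without SS replicate 4 (-1.62, adjusted p = 0.026), without replicate 4 in both groups (-1.69, adjusted p = 0.029), with total counts only (-1.47, adjusted p = 0.044) and in a fit of all 32 libraries (-1.27, adjusted p = 0.049). Its SS values spread over a wider range than the change. Tyms, which makes the thymidine precursor of DNA, rose by 1.62.

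Of 28 interferon-stimulated genes, 20 fell and 0 rose, with a median of -1.22, and of 15 complement genes 11 fell and 0 rose, with a median of -0.91. Ifit3, an interferon-induced antiviral protein, had 38.9, 69.9, 25.8 and 41.9 CPM with TGFb, against 135, 219, 299 and 487 CPM with SS (log2 fold change -2.74 ± 0.38 (SE), adjusted p = 6.3e-05). Gbp2, a GTPase against intracellular microbes, had 14.4, 20.6, 6.18 and 18.5 CPM with TGFb, against 32.4, 50.0, 37.4 and 108 CPM with SS (log2 fold change -1.92 ± 0.23 (SE), adjusted p = 1.7e-05). Among complement genes, the protease C1s1 fell by 2.49.

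Leukocyte markers fell with them, 10 of 13, and none rose. Their summed level was lower in each pair, with log2 ratios of -0.92, -0.72, -0.64 and -0.83. The macrophage marker Adgre1 had 7.19, 2.33, 14.1 and 0.871 CPM with TGFb, against 15.0, 6.68, 23.2 and 2.61 CPM with SS (log2 fold change -1.14 ± 0.14 (SE), adjusted p = 1.2e-05). Adgre1 was not called without the replicate block (-0.95, adjusted p = 0.41), where 1 of the 13 was. In such bulk samples, fewer cells of a type and less RNA per cell cannot be told apart. The part of leukocytes in the falls of interferon and complement genes was not tested. Complement gave 7 falls without the block. The summed marker level was lowest in replicate 4 of each group. Ifit3 had its highest SS value in replicate 4 (487 CPM) and its highest TGFb value in replicate 2 (69.9 CPM). Whether Ifit3 follows the marker level was not tested.

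A short form of the interferon-stimulated response element, 2 copies of TTTC with 2 bases between them, was found in 11 of the 20 interferon-stimulated genes with an entry, against 3.46% of 27018 genes. The window of Ifit3 is shown 5′ to 3′ because it had the largest fall of the list, with its matches in capitals, and lies at chr19:34583279-34583528 (plus strand).
Ifit3: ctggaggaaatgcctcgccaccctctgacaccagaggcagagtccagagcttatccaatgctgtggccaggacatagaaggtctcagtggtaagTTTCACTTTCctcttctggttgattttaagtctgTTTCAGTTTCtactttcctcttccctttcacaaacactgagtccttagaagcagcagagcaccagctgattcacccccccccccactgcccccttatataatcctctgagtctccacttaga
Ifit3 holds 2 matches, which begin 156 and 122 bases before the gene start.

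Chemokines and NFkB targets had no common direction, with 8 rises and 7 falls among 30. Ptgs2, the inducible cyclooxygenase, had 139, 131, 283 and 696 CPM with TGFb, against 3.49, 3.96, 9.08 and 34.7 CPM with SS (log2 fold change 4.75 ± 0.38 (SE), adjusted p = 9.9e-07). Cxcl5, a neutrophil chemokine, had 2.22, 3.84, 2.02 and 3.48 CPM with TGFb, against 32.5, 33.5, 9.28 and 21.5 CPM with SS (log2 fold change -2.997 ± 0.30 (SE), adjusted p = 3.7e-06). Vcam1 and Icam1, adhesion molecules for leukocytes, fell by 1.02 and 0.91. With total counts only, or without replicate 1 or 2, 4 of the 30 rose.

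Called protein-coding genes with an average log2 CPM of at least 1 were also ranked by size. Only genes with the same sign in all 4 pairs and with groups that did not overlap were ranked. The 15 largest rises included several genes outside the lists. Ccl17, a chemokine for T cells, had 46.0, 52.8, 59.9 and 11.8 CPM with TGFb, against 0.554, 0.276, 1.39 and 0.0716 CPM with SS (log2 fold change 6.33 ± 0.40 (SE), adjusted p = 1.4e-07). Crabp2, a carrier of retinoic acid, had 61.1, 78.1, 140.3 and 38.9 CPM with TGFb, against 1.62, 0.599, 0.695 and 1.97 CPM with SS (log2 fold change 6.00 ± 0.51 (SE), adjusted p = 1.5e-06). Tnfsf18, a ligand of the tumour necrosis factor family, and Slc39a2, a zinc transporter, rose by 5.31 and 5.90. Among the largest falls, Galnt15, an enzyme that starts O-glycans, had 0.0493, 0.146, 0.0404 and 0 CPM with TGFb, against 10.4, 12.7, 15.8 and 3.44 CPM with SS (log2 fold change -7.42 ± 0.36 (SE), adjusted p = 1.0e-08). Slc10a6, a steroid sulfate transporter, was at 0 in all 4 TGFb libraries, against 0.681, 1.80, 0.368 and 6.13 CPM with SS. With 3 counts per library as the floor, its mean level was at least 16.6-fold lower with TGFb. Fmo2, a flavin monooxygenase, and Selenbp1, a methanethiol oxidase, fell by 4.60 and 4.45. Among long noncoding genes, Dancr rose by 1.59, while Trp53cor1, known as lincRNA-p21, and Dleu2 fell by 1.64 and 1.48.

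The pairs differed widely for some genes. Over 6391 called protein-coding genes with an average log2 CPM of at least 3, the range of the 4 pair log2 ratios had a median of 0.51, and 30 genes had a range of at least 3. The 3240 such genes that were not called had a like spread, with a median of 0.49 and 17 genes at 3 or more. The genes in the rest of this paragraph were chosen after their values were seen, for their spread. Eln, above, had pair ratios of 1.90, 3.29, 1.72 and 5.77. C1qtnf3, a secreted protein of the C1q and TNF family, had 4.78, 9.67, 1.33 and 781 CPM with TGFb, against 0.426, 0, 0.654 and 4.73 CPM with SS, so that 1 library held most of its reads. Without that library its log2 fold change was 3.46, against 5.88 with it. Replicate 4 also went alone against the others. Abcb1a, a drug efflux pump, had pair ratios of 3.72, 2.91, 3.92 and -0.73, and Lgr6, an R-spondin receptor, of 2.49, 1.42, 4.08 and -1.55. Rgs5, a pericyte marker, had 11.03, 105, 5.33 and 127 CPM with TGFb, against 21.3, 180.3, 14.2 and 31.7 CPM with SS. Without replicate 4 in both groups Rgs5 fell (-0.97, adjusted p = 0.0036), and Lgr6 rose without its TGFb library (2.29, adjusted p = 0.0042). Without replicate 3 in both groups the log2 fold change of Lgr6 was 0.81 (adjusted p = 0.31), against 1.60 with all libraries. Of 19 uncalled genes that moved over 2-fold both up and down among the pairs, 12 had replicate 4 alone on its side. The same count was not made for the other replicates.

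**Figure D4:**
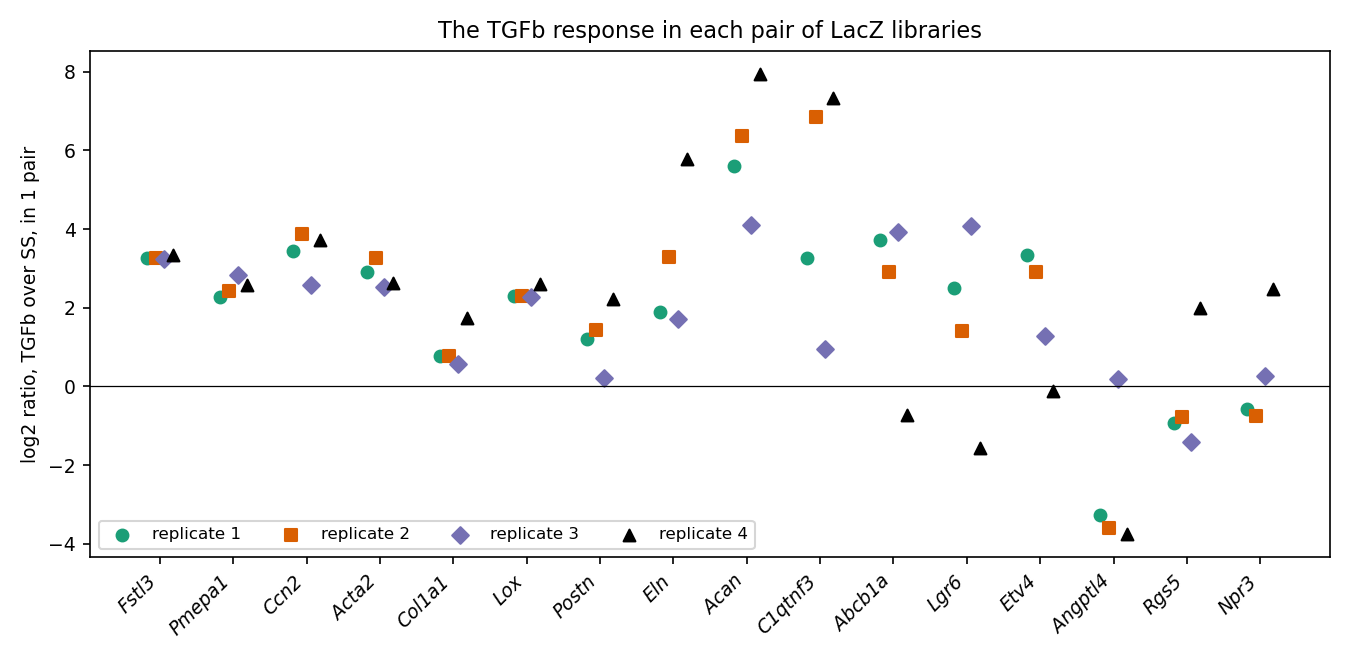
Log2 ratio of TGFb over SS in each of the 4 pairs of LacZ libraries (y axis, 1 symbol per replicate number) for 16 genes. Fstl3, Pmepa1 and Lox are even across pairs, while Eln, Acan and C1qtnf3 differ in size, Abcb1a, Lgr6 and Rgs5 have replicate 4 alone on its side of 0, and Npr3 has both signs.

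The TGFb libraries were also set against those of the other stimuli in the same fit, comparisons that share the TGFb libraries with the one against SS. Against IL-1b, 3808 genes were higher with TGFb (24%) and 4295 lower (27%), or 51% in all. Against bFGF, 3885 were higher (24.5%) and 4532 lower (28.5%), or 53% in all, and with total counts only 2539 were higher and 5790 lower. Contractile genes were higher with TGFb than with IL-1b in 20 of 25 cases, and than with bFGF in 19. Acta2 averaged 3832 ± 1693 CPM with TGFb, 189.8 ± 71.2 CPM with IL-1b and 293 ± 141 CPM with bFGF (SD, n = 4 each). The differences were 4.32 ± 0.53 (SE, adjusted p = 3.3e-05) against IL-1b and 3.50 ± 0.52 (SE, adjusted p = 1.5e-04) against bFGF on the log2 scale. Cholesterol genes were higher with TGFb than with IL-1b in 22 of 25 cases and than with bFGF in 23, and ATF4 targets in 15 and 18 of 22. All 28 interferon-stimulated genes were lower with TGFb than with IL-1b, and 21 of 28 were lower than with bFGF. Resting fibroblast genes were lower in 19 and 21 of 25 cases.

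For some genes that rose over SS, the level with IL-1b was close or higher. Il6 averaged 37.4 ± 9.60 CPM with TGFb, 125 ± 13.5 CPM with IL-1b and 3.38 ± 0.756 CPM with bFGF, so it was lower than with IL-1b (-1.73 ± 0.22 (SE, adjusted p = 4.3e-05)). Glycolysis genes were higher with TGFb than with IL-1b in 1 of 23 cases and lower in 8. Against bFGF, 12 of them were higher with TGFb and 3 lower. Hk2 averaged 110.2 ± 12.3 CPM with TGFb and 84.1 ± 5.83 CPM with IL-1b, a difference of 0.37 ± 0.17 (SE, adjusted p = 0.082) that was not called. Runx1 and Timp1 likewise missed the threshold against IL-1b, with differences of 0.06 ± 0.26 (SE, adjusted p = 0.86) and 0.05 ± 0.14 (SE, adjusted p = 0.8). Has2, the hyaluronan synthase, gave 0.14 ± 0.32 (SE, adjusted p = 0.74) against IL-1b. Cell cycle genes were lower with TGFb than with bFGF in 28 of 32 cases, and Mki67 differed by -3.51 ± 0.59 (SE, adjusted p = 3.8e-04). The largest gap to IL-1b among list members was at Cxcl5, which averaged 2.89 ± 0.905 CPM with TGFb and 2329 ± 378 CPM with IL-1b (-9.67 ± 0.36 (SE, adjusted p = 2.0e-09)).

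**Figure D5:**
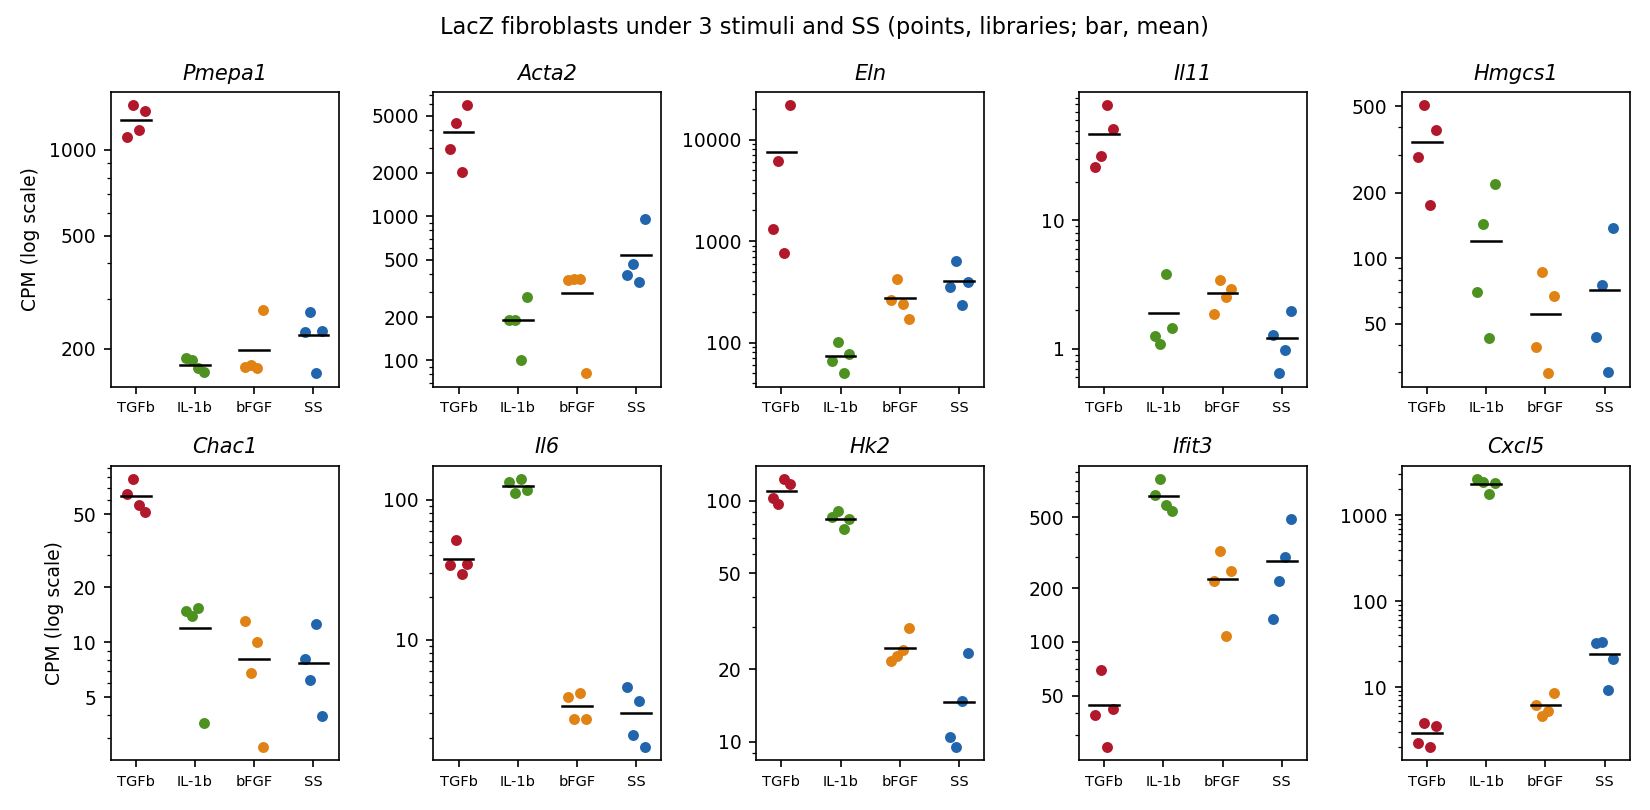
CPM on log axes for 10 genes in LacZ fibroblasts with TGFb, IL-1b, bFGF or SS (points are the 4 libraries of a group, the bar is their mean). Pmepa1, Acta2, Eln, Il11, Hmgcs1 and Chac1 have their highest mean with TGFb, Hk2 is high with TGFb and IL-1b, and Il6, Ifit3 and Cxcl5 are highest with IL-1b.

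In iCre cells the same contrast called 4256 rises (25.4%) and 4532 falls (27%) of 16760 genes, or 52.4% in all. In a fit of all 32 libraries, 3947 genes rose in both vectors, which is 83.6% of the 4721 that rose in LacZ and 92.7% of those that rose in iCre. Both fell for 4081 genes, 79% of the 5168 LacZ falls and 90% of the iCre falls, and 0 genes were called in opposite directions. The difference between the responses was tested as an interaction. Of 16760 genes, 0 passed in edgeR, where 460 had an unadjusted p under 0.05 (2.74%), and 0 were called by DESeq2, where 468 did. Each vector and replicate number had its own block, which takes up what all libraries of that vector and number have in common. Deviations within 1 condition that same-numbered LacZ and iCre libraries share were not modelled. With no true difference, a share of 0.05 would be expected, which is above the 2.74%. The test may thus be conservative, and 0 calls do not show that the responses were equal. Side by side, the log2 fold change in LacZ and in iCre was 2.84 and 3.48 for Acta2, 3.41 and 3.33 for Ccn2, 2.41 and 2.13 for Hmgcs1 and 1.01 and 1.12 for Pkm. For Pkm the difference was -0.11 (SE 0.29, unadjusted p = 0.71).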

How the data were processed

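The authors deposited 1 table of raw read counts for 55414 Ensembl genes in 32 polyadenylated RNA libraries. Per the submitters' processing notes, reads were checked with FastQC 0.10.1, mapped to mm10 and counted with HTSeq 0.10.0; no source used here names the aligner, annotation release or strand setting. Besides Fstl3, Ldlrad4 and Tagln, exons of Trp53cor1, Fdps, Ccn2 and Timp3 share 21.3 to 44.1% of their bases with another gene.

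Groups follow the titles. The 16 LacZ libraries were fitted in edgeR 4.0.16 (R 4.3.3) with filterByExpr, TMM scaling, the quasi-likelihood test and replicate number as a block; all p-values are two-sided and adjusted over all genes tested by Benjamini-Hochberg. The numbers were taken as pairs because same-numbered libraries deviated together (r 0.24 to 0.80, against -0.70 to 0.55 for other pairs, 12284 genes). Pair log2 ratios add 2 counts to each value. DESeq2 1.42.0 and other settings were alternatives. No 2 libraries looked like duplicates (lowest chi-square per degree of freedom 15). The fit was also run on simulated counts in which far fewer genes changed than were called here. That run does not test how the scaling acts when most genes change.

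Names came from a fixed rule: every list member, Pkm, Map3k7, the 15 largest rises and 15 largest falls among called protein-coding genes whose pairs and groups did not conflict, the 10 called genes with most reads, 6 long noncoding genes and up to 6 genes each way in other contrasts. Exceptions are stated where they stand, and some list members are counted but not reported by name here. The members and lists were chosen with earlier results of these data known. Symbols, gene types and exons are from GENCODE M21, promoter windows from RefSeq. A floor is 3 counts per library and, like all counts, covers counting error only.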

Additional observations from a re-analysis of the deposited data

Results flagged for a closer look

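Among 79 genes with values in every library, 158 groups of 4 were examined, and in 19 of them (12.03%) 1 library lay far from the other 3; chance alone marks about 1 in 20 such groups. C1qtnf3 and Rgs5 were among genes chosen for their spread, so the share describes the genes named here and tests nothing. Replicate 4 was that library in most cases. In TGFb libraries, replicate 4 stood above the others for Cnn1 (249 CPM, the others 20.2 to 46.8), Mylk (24.5 CPM, the others 1.89 to 2.91), Itga8 (98.8 CPM, the others 2.87 to 3.84), Pdgfra (214 CPM, the others 111 to 126), Tnxb (6.67 CPM, the others 4.03 to 4.48) and C1qtnf3 (780.5 CPM, the others 1.33 to 9.67). It stood below them for Fstl3 (317 CPM, the others 389 to 398).

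In SS libraries, replicate 4 stood above the others for Ltbp2 (862 CPM, the others 105 to 217), Tgfbr3 (134 CPM, the others 42.7 to 50.6), Cnn1 (51.8 CPM, the others 1.06 to 3.45), Mylk (170.3 CPM, the others 17.6 to 22.9), Itga8 (248 CPM, the others 58.0 to 72.7), Col12a1 (370.1 CPM, the others 198 to 209) and C1qtnf3 (4.73 CPM, the others 0 to 0.654). It stood below them for Fstl3 (31.2 CPM, the others 40.5 to 41.4). The contractile genes Cnn1 and Mylk, the integrin Itga8, Fstl3 and C1qtnf3 were marked in both groups, with replicate 4 on the same side each time.

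The remaining cases were other replicates. Replicate 3 was high for Angptl4 with TGFb (40.9 CPM, the others 10.4 to 12.9) and for Notch4 with SS (12.02 CPM, the others 2.90 to 3.96). Replicate 2 was low for Met with TGFb (2.48 CPM, the others 4.06 to 4.34) and high for Rgs5 with SS (180.3 CPM, the others 14.2 to 31.7).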

How the results depend on the processing

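Without the replicate block, which pairs libraries of the same number, 3783 genes rose and 4046 fell with TGFb. A test against a minimum fold of 1.5 left 1440 rises and 2218 falls. With total counts only, 2539 genes were higher and 5790 lower with TGFb than with bFGF. Leaving out 1 library gave 3824 to 4420 rises and 4393 to 4752 falls, and leaving out a replicate number 3712 to 4191 rises and 3951 to 4594 falls. Every other setting for all 3 stimulus comparisons kept its counts within 1.5 times, and the vector comparison stayed at 0. Of 214 named genes that were called, 186 were called with the same sign under all 20 alternatives run. Signs turned for genes that were not called: with total counts only, Smad2 (-0.14), Tgfbr1 (-0.12), Fn1 (-0.13), Ddit3 (-0.10), Map3k7 (-0.063) and Sel1l (-0.13); without the block, Fn1 (-0.025) and Rgs5 (0.0087); and when libraries or numbers were left out, Tgfb2 (-0.54 to 0.11), Tgfbr1 (-0.063 to 0.19), Fn1 (-0.21 to 0.29), Sel1l (-0.036 to 0.18), Rgs5 (-0.97 to 0.074) and Npr3 (-0.36 to 1.11). Of 96 counts of list members (48 lists, 2 directions), 33 moved by over 1.5 times in at least 1 of 8 settings, the minimum fold aside. The moves not given above include, without the block, redox falls of 5 of 23 and falls of 0 of 5 mesothelial markers; with total counts only, rises of 4 of 11 splicing genes; with DESeq2, rises of 7 of 25 ion channel genes; without replicate 1 or 2, falls of 3 of 20 p53 genes; and without replicate 4, falls of 6 of 8 mural markers and 4 of 18 YAP targets. With the minimum fold 1 of 7 pentose phosphate genes and 4 of 30 oxidative phosphorylation genes rose. Causes were not tested. The floor of 3 counts limits the fold of genes that are nearly silent in a group, such as Slc10a6, Galnt15, Fgf21 and Acan.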

Other observations

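Other gene groups that were counted gave mixed results. Of 18 targets of the YAP coactivator, 9 rose and 2 fell. Ccn1, a matricellular protein, had 1373, 1521, 1427 and 1346 CPM with TGFb, against 367, 394, 346 and 366 CPM with SS (log2 fold change 1.94 ± 0.36 (SE), adjusted p = 6.3e-04), with every TGFb library above every SS library. Nuak2, a stress kinase, and Gadd45b, a stress sensor, rose by 3.13 and 2.37. Among 17 feedback and other target genes of the ERK kinase, 4 rose and 4 fell. Ier3 and Etv4 rose by 2.63 and 1.67, and Dusp1 and Spry2 fell by 1.30 and 0.98. The call for Etv4, whose groups overlapped, was lost without the block (adjusted p = 0.058), with no filter on low counts (adjusted p = 0.057) and without replicate 1 or 2, in SS alone or in both groups (1.28 to 1.43, adjusted p = 0.053 to 0.10). Without replicate 1 or 2, 1 of the 17 rose.

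Of 23 redox genes, including targets of NRF2, 7 rose and 8 fell, and with total counts only, or without replicate 1 or 2, 4 rose. Slc7a11, the cystine importer, rose by 2.49, while Gstm1, a glutathione transferase, fell by 3.27. Of 20 p53 targets and arrest genes, 7 rose and 5 fell, among them Cdkn2b, the cell cycle inhibitor p15, up by 1.33. Of 25 ion channel and calcium genes, 4 rose and 8 fell. Piezo2, a mechanically gated channel, had 429.5, 234, 409.6 and 375 CPM with TGFb, against 51.8, 52.6, 84.4 and 25.5 CPM with SS (log2 fold change 2.90 ± 0.36 (SE), adjusted p = 2.8e-05). Kcnj8, a potassium channel that also marks mural cells, fell by 2.17, but was not called without the block (-2.03, adjusted p = 0.092). Markers of Schwann cells gave 0 rises and 1 fall among 3 tested, those of mesothelium 0 and 2 among 5, and those of adipocytes 0 and 1 of 1.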
